A study of Canis lupus familiaris with 28 samples.

Results

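Members of the tumor necrosis factor (TNF) and TNF receptor superfamilies were examined in the blood of dogs with atopic dermatitis (AD). They were chosen by gene name on the array alone, as genes whose symbol began with TNFSF or TNFRSF or was TRAF1 to TRAF7, and 1 gene that met this rule was left out. The rule gave 24 of 34382 distinct gene names, as 8 ligands, 9 receptors and 7 TRAF adaptors, and the rule used no measured value. RNA from whole blood was measured in 20 AD dogs and in 8 healthy controls, each on its own two-color Agilent array of canine genes. AD dogs were privately owned animals of various breeds diagnosed at a veterinary clinic, and healthy dogs were canine blood donors. Age, sex and breed are not given in the labels for single dogs, and no treatment was compared. By the paper's account most AD dogs were female and most healthy dogs male, and age ranges and breeds overlapped only in part. Without values for single dogs, none of these could be entered in the tests. On each array the dog's RNA was labelled with Cy5 and a common reference, pooled from 13 other healthy dogs, with Cy3. The dyes were never swapped, so a ratio against the reference cannot be told apart from a dye effect, and only differences between dogs are read here.

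TNF ligands are mostly membrane-bound or shed trimers that cluster their receptors on the receiving cell. Receptors without a death domain recruit TRAF proteins, adaptors that pass the signal to NF-κB and MAP kinases, whereas TNFRSF1A carries a death domain and can also start cell death. In blood these pairs control T cell costimulation, B cell survival and the activation of neutrophils and monocytes.

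The 24 genes were read by 33 probes of 60 bases, and 8 genes had several probes. The brightest probe represented a gene. Probe sequences are given where the reading of a result turns on them, with positions as the array files give them on canFam3. The brightest TRAF2 probe (chr9:48689630-48689689, minus strand) and the TRAF4 probe (chr9:42939450-42939509, plus strand) lay in the conserved TRAF domain that both proteins share. They were the most alike of 518 probe pairs of different family genes, with 38 identical bases of 56 aligned without gaps, whereas the next pair had 28 of 56. Capitals mark the identical bases.
TRAF2: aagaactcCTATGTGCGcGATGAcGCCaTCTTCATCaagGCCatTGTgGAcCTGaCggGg
TRAF4: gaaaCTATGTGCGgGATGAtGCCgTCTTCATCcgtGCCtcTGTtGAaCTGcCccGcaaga
Their mismatches were spread along the probe rather than gathered at 1 end, and cross-hybridization between the paralogs was not tested.

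TNFRSF1B, the second TNF receptor, was read by 2 probes that shared no position. The brighter probe covered chr2:84146808-84147368 on the minus strand, a span of 561 bases that its 60 bases can only cross over an intron. The second lay at chr2:84148800-84148859 on the same strand. Both are shown because they give the same gene 2 separate readings.
TNFRSF1B: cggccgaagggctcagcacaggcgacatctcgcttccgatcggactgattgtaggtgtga
TNFRSF1B second probe: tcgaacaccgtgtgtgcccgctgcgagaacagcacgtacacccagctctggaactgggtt
The TNFSF14 probe (chr20:53604315-53606451, plus strand, span 2137) and the TNFRSF4 probe (chr5:56403215-56403710, minus strand, span 496) also crossed introns. The TNFSF8 probe (chr11:68982364-68982423, minus strand), the TNFSF10 probe (chr34:36719251-36719310, minus strand) and the TRAF1 probe (chr11:73928492-73928551, minus strand) were each continuous in the genome. TNFSF14, TNFRSF4 and TRAF1 are shown for the spread of their genes between AD dogs, TNFSF8 for its p, the lowest of the family, and TNFSF10 as the brightest ligand.
TNFSF14: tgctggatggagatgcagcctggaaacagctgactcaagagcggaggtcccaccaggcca
TNFRSF4: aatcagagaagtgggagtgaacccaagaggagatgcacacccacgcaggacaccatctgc
TNFSF8: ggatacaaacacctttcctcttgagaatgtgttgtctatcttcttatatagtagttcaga
TNFSF10: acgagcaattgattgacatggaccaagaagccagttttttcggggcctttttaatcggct
TRAF1: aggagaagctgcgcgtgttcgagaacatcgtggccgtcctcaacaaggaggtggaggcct

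Of the 24 genes, 15 were well above background in the dog channel on every array. TNFSF15, a ligand made by endothelial cells, was not well above background on any array. The share of probes well above background was 84.3% to 90.3% on healthy arrays and 51.7% to 87.5% on AD arrays. The 6 AD arrays of the last of 5 scan days had 51.7% to 63.2%, and 15 to 19 family genes above background, against 22 to 23 on the healthy arrays. Low detection was not confined to that day, as AD 14, scanned on day 4, had 60.2% and 18 family genes. The arrays lay on 8 slides, and each slide and each scan day held 1 group only, so that disease cannot be told apart from slide or scan day. Next came TNFRSF11A (RANK), TNFRSF11B (its decoy partner osteoprotegerin) and TNFSF4 (OX40 ligand), each detected on 10 of 20 AD arrays and 8 of 8 healthy arrays, and TNFSF11 (RANK ligand), detected on 12 AD arrays and 6 healthy arrays. None of these 4 genes was detected on an AD array of the last scan day.

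A filter on signal, which kept a probe where the median processed intensity of at least 1 channel in 1 group exceeded 100, kept 18 of the 24 genes. The 6 genes below it were TNFRSF11A, TNFRSF11B, TNFSF4, TNFSF11, TNFSF15 and TRAF5. TRAF5 lay just outside, with median dog channel intensities of 96.6 for AD and 80.9 for healthy dogs, whereas TRAF1 lay just inside with 108 and 148. TRAF5 was nevertheless detected on all 28 arrays.

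No family gene passed the test of AD against healthy dogs. In limma with Benjamini-Hochberg adjustment over 30202 probes, 0 of 18 genes passed the adjusted p threshold of 0.085 used for these data, and the smallest adjusted p among them was 0.843. At an unadjusted p under 0.05, 0 of 18 genes were called, where 6.12% of all probes were (4.46% lower and 1.65% higher in AD dogs). Among all probes 0 passed the adjusted threshold and the smallest adjusted p was 0.490. The study itself reported differentially expressed transcripts at this threshold, after a filter that left fewer transcripts, and those calls were not recovered here. A stricter signal filter (24997 probes) also gave 0 calls, a detection filter (38291 probes) gave 1 and no signal filter (43603 probes) gave 3. The paper also reported lower PIAS1, RORA and SH2B1 in AD dogs by real-time PCR, and none of these is a family gene. The log2 fold change (AD minus healthy) ran from −0.33 to 0.29 with a median of 0.02, against a median of −0.01 over all probes. By estimate, 10 genes lay above 0 and 8 below. Each dog had 1 array, so the spread behind the p-values holds differences between dogs, slides and scan days together.

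**Figure D1:**
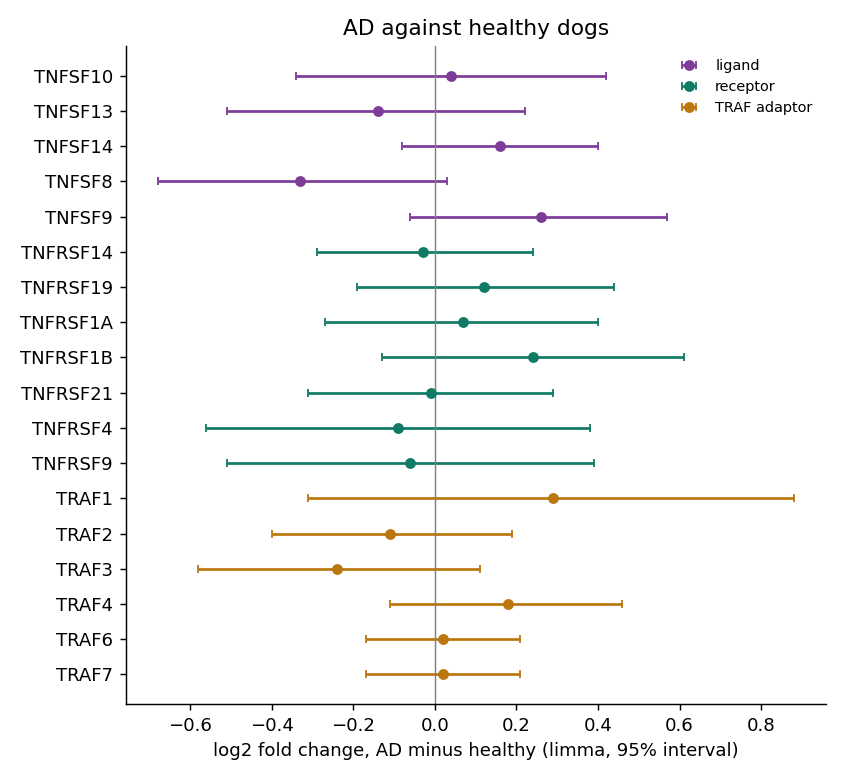
Log2 fold change of each of the 18 tested genes, AD minus healthy, on the x axis, with the 95% confidence interval from limma as bars and the role of the gene by color. Every interval includes 0, the narrowest are those of TRAF6 and TRAF7 (−0.17 to 0.21) and the widest that of TRAF1 (−0.31 to 0.88).

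Among the ligands, TNFSF10 (TRAIL, an inducer of apoptosis) was the brightest, with a mean processed intensity of 14500. Its log2 ratio to the reference was −0.96 to 0.32 among healthy dogs (median −0.27) and −0.88 to 0.97 among AD dogs (median −0.35). The groups overlapped almost wholly, and the log2 fold change was 0.04 (95% confidence interval −0.34 to 0.42, n = 20 and 8). TNFSF13 (APRIL, a survival factor for plasma cells) had log2 ratios of −1.0 to 0.40 among healthy dogs (median −0.14) and of −1.26 to 0.46 among AD dogs (median −0.24). Its log2 fold change was −0.14 (interval −0.51 to 0.22), and a second probe that shares 46 bases with the first gave −0.11.

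TNFSF9 (4-1BB ligand, which costimulates T cells through TNFRSF9) had log2 ratios of −0.92 to 0.43 among healthy dogs (median 0.09) and of −0.59 to 0.80 among AD dogs (median 0.23). In AD dogs 17 of 20 lay above the healthy mean and 6 above the highest healthy dog, with a log2 fold change of 0.26 (interval −0.06 to 0.57, limma p = 0.104). The healthy mean of −0.03 lay below the healthy median, and it included healthy 8 at −0.92, where the next lowest healthy dog was at −0.39. With slide 3, which held healthy 8, left out, the log2 fold change was 0.12. TNFSF8 (CD30 ligand, made by activated T cells) had the lowest p of the family. Its log2 ratio was −0.05 to 0.56 among healthy dogs (median 0.34) and −0.95 to 0.85 among AD dogs (median 0.12), and 8 AD dogs lay below the lowest healthy dog. The log2 fold change was −0.33 (interval −0.68 to 0.03, limma p = 0.0698, adjusted p = 0.843). TNFSF8, TNFSF14 and the other genes below that are described for their spread were chosen after their values were seen.

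TNFSF14 (LIGHT, the ligand of TNFRSF14 and the lymphotoxin-β receptor) had the tightest healthy values of the tested ligands. The 8 healthy dogs lay between −0.15 and 0.09, whereas the 20 AD dogs lay between −0.46 and 0.67. Of the AD dogs, 11 were above all healthy dogs, 4 were below all of them and 5 lay between. The log2 fold change was 0.16 (interval −0.08 to 0.40).

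Among the receptors, TNFRSF14 (HVEM, an inhibitory or stimulatory receptor of lymphocytes) was the brightest, at a mean intensity of 31100. Its log2 ratio was −0.86 to −0.14 among healthy dogs (median −0.33) and −1.02 to 0.07 among AD dogs (median −0.42). The log2 fold change was −0.03 (interval −0.29 to 0.24), and a second probe gave −0.05. TNFRSF1A, the death domain receptor of TNF, had log2 ratios of −0.21 to 0.51 among healthy dogs (median 0.24) and of −0.58 to 1.21 among AD dogs (median 0.32). The log2 fold change was 0.07 (interval −0.27 to 0.40), with 0.19 from a second probe that crosses an intron.

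TNFRSF1B, the TNF receptor of leukocytes, had log2 ratios of −0.76 to 0.74 among healthy dogs (median −0.03) and of −0.68 to 0.97 among AD dogs (median 0.24). The log2 fold change was 0.24 (interval −0.13 to 0.61), and the second of the probes shown above gave 0.26 (interval −0.10 to 0.62). TNFRSF19, an orphan receptor better known from skin and nervous tissue, lay at −0.27 to 0.63 among healthy dogs (median 0.07) and at −0.52 to 0.90 among AD dogs (median 0.26). Its log2 fold change was 0.12 (interval −0.19 to 0.44). TNFRSF21 (death receptor 6) had a log2 fold change of −0.01 (interval −0.31 to 0.29). For the T cell receptors TNFRSF4 (OX40) and TNFRSF9 (4-1BB) it was −0.09 (interval −0.56 to 0.38) and −0.06 (interval −0.51 to 0.39).

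The TRAF adaptors included the tightest genes of the family. TRAF6, which links both TNF receptors and Toll-like receptors to NF-κB, had log2 ratios of −0.57 to 0.03 among healthy dogs (median −0.10) and of −0.37 to 0.20 among AD dogs (median −0.17). TRAF7, the family member without a TRAF domain, had ratios of −0.33 to 0.27 among healthy dogs (median −0.08) and of −0.37 to 0.36 among AD dogs (median −0.07). Both had a log2 fold change of 0.02, with intervals of −0.17 to 0.21. The other TRAF6 probes gave −0.11 and 0.08.

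TRAF2, the main adaptor of TNFRSF1B, had log2 ratios of −0.32 to 0.33 among healthy dogs (median −0.03) and of −0.74 to 0.71 among AD dogs (median −0.19), with a log2 fold change of −0.11 (interval −0.40 to 0.19) and −0.01 from a second probe. TRAF3, a brake on the alternative NF-κB pathway, gave −0.24 (interval −0.58 to 0.11) from its brighter probe and 0.11 (interval −0.19 to 0.41) from its second, so that its probes disagreed in sign. TRAF4 gave 0.18 (interval −0.11 to 0.46). TRAF1, an adaptor induced by NF-κB itself, gave 0.29 (interval −0.31 to 0.88, limma p = 0.335).

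**Figure D2:**
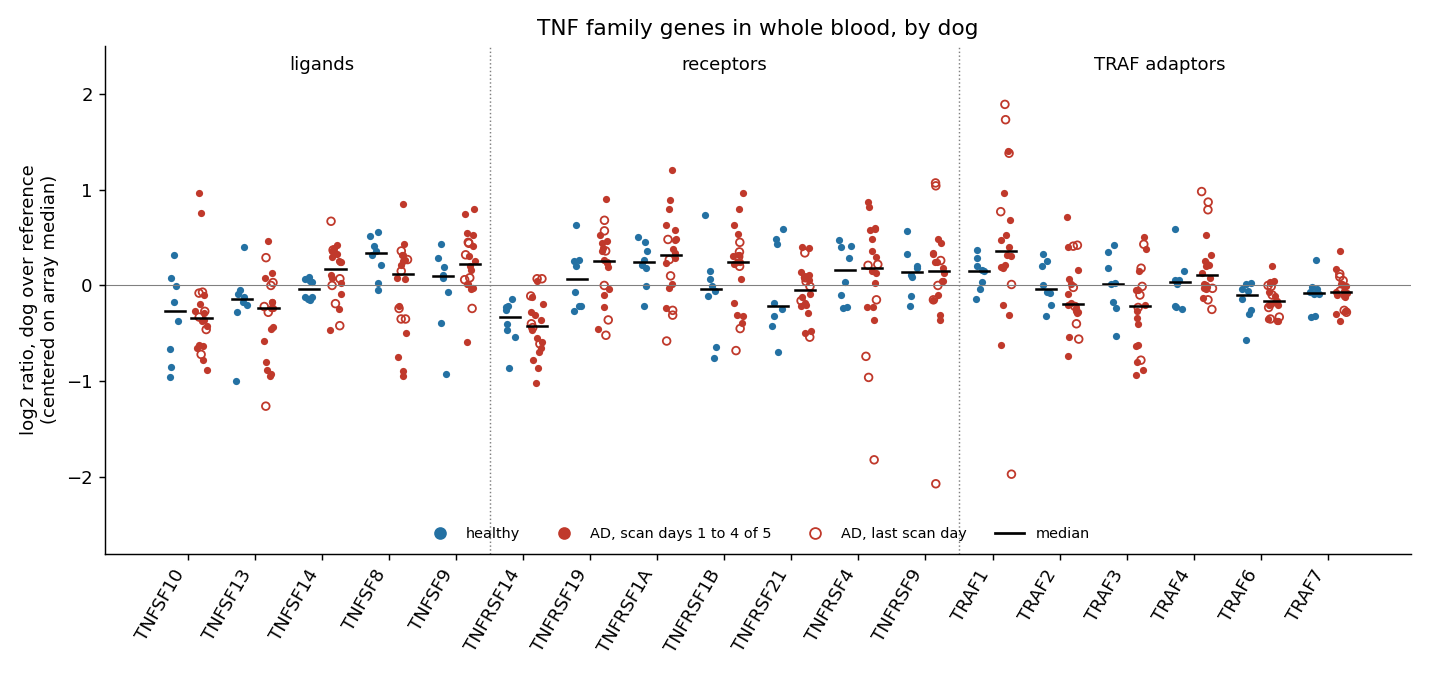
Log2 ratio of dog over reference, centered on the array median (y axis), for each dog and each of the 18 tested genes (x axis). Healthy dogs are blue and AD dogs red, open circles are the 6 AD arrays of the last scan day, and black lines are medians. The groups overlap in every gene, and the 5 values farthest from 0, in TRAF1, TNFRSF4 and TNFRSF9, belong to AD arrays of the last scan day.

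All healthy arrays were scanned on day 2, on slides 2 and 3. AD arrays lay on 6 slides scanned on several other days, so the spread between AD dogs also holds differences between slides and days. The spread between AD dogs exceeded that between healthy dogs in 12 of 18 genes (66.7%), where it did so in 77.6% of all probes. Without the last scan day these shares were 66.7% and 66.8%. The widest was TRAF1, with a standard deviation (SD) of 0.87 among the 20 AD dogs and 0.17 among healthy dogs. Healthy dogs lay between −0.14 and 0.37, whereas AD 18 was at −1.97, AD 20 at 1.73 and AD 19 at 1.89. Without the 6 arrays of the last scan day the SD of TRAF1 in AD dogs was 0.51. TNFRSF4 and TNFRSF9 had SDs of 0.65 and 0.63 in AD dogs, against 0.30 and 0.24 in healthy dogs, with the lowest values in AD 18 (−1.82) and AD 20 (−2.07). Without the last scan day these SDs were 0.39 and 0.26.

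TRAF1 was well above background on 2 of the 6 arrays of that day, TNFRSF4 on 1 and TNFRSF9 on 4, and the part of low signal in their spread was not tested. TNFSF8 was wider in AD dogs without that day, at 0.54 with 14 dogs and 0.48 with 20, against 0.22 in healthy dogs. TNFSF14 had an SD of 0.29 in AD dogs, 0.26 without that day and 0.11 in healthy dogs. TRAF4 went the other way, from 0.35 with all AD dogs to 0.18 without that day, below the 0.27 of healthy dogs. No test of the difference in spread was made.

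**Figure D3:**
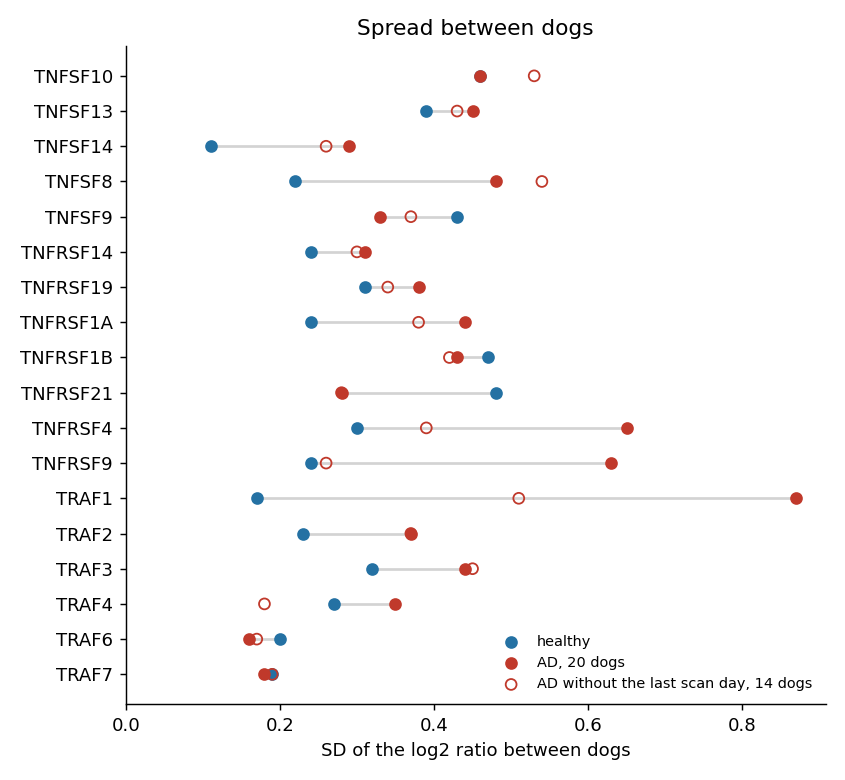
Standard deviation of the log2 ratio between dogs (x axis) for each tested gene. Blue points are 8 healthy dogs, filled red points 20 AD dogs and open red points the 14 AD dogs left without the last scan day. TRAF1, TNFRSF4 and TNFRSF9 have the largest values with all AD dogs, and the open points of these 3 genes lie nearer to the blue ones.

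Whole blood holds several cell types, so the family genes were set against the mean log2 ratio of marker genes of each type. Fewer cells of a type and less RNA per cell cannot be told apart in such samples. All marker genes tested for T cells (5, among them CD3D and LCK), neutrophils (9), monocytes (6) and erythroid cells (6, among them ALAS2) were detected on every array, as were 4 of 7 for B cells and all 4 tested for platelets. Keratinocyte markers were listed as genes that blood should lack. Of 3 tested keratinocyte markers 2 (KRT14 and KRT10, at mean intensities of 2770 and 4880) were detected on every array, and KRT5 on 19 AD arrays and 8 healthy arrays. Detection of a marker therefore does not by itself show that its cell type was present. Below the signal filter, KRT1 was detected on 6 AD arrays and 6 healthy arrays, TP63 on 7 and 6, and DSG3 on none. In none of these 7 lists did a gene reach an unadjusted p under 0.05 between AD and healthy dogs. All 6 erythroid markers had a log2 fold change above 0 (median 0.42), with a mean log2 ratio of −1.52 to 1.29 among healthy dogs (median −0.26) and of −1.74 to 1.47 among AD dogs (median 0.54). All 4 platelet markers had one below 0 (median −0.30). For T cells, B cells, monocytes, neutrophils and keratinocytes the median was −0.05, −0.01, 0.01, 0.18 and −0.11.

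For each of 6 marker lists, limma fitted every probe on the marker mean with the disease group as a further term, and adjusted p over all probes outside the list. This comparison was added after the data were seen. The family genes moved most often with the erythroid markers, where 11 of 18 genes passed an adjusted p of 0.05, beside 40.2% of all probes. TRAF1, TNFRSF4, TNFRSF19 and TRAF4 were higher in dogs with higher erythroid markers (4 of 18 genes, beside 17.8% of all probes). TNFSF13, TNFRSF21, TNFRSF14, TNFSF10, TRAF3, TRAF2 and TRAF6 were lower (7 of 18, beside 22.3%). In log2 units per log2 unit of marker mean, the slope was −0.32 for TNFSF13 (interval −0.46 to −0.18, adjusted p = 0.000448 in limma). For TRAF1 it was 0.53 (interval 0.30 to 0.75, adjusted p = 0.000379 in limma), but TRAF1 was well above background on only 15 of 20 AD arrays, and its extreme ratios in AD 18, AD 19 and AD 20 were not, so the size of this slope is uncertain. Erythroid cells dominate blood RNA when young red cells are frequent, and these values do not show in which cells a family gene was transcribed.

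TNFRSF19 followed the erythroid markers most closely in AD dogs, with Pearson's r of 0.87 and Spearman's rho of 0.87 (n = 20). Its permutation p was 1e-05 for each, the smallest that 100000 permutations can give, or 0.00216 after adjustment over 216 correlations of 18 genes with 6 lists in both groups. Without the 2 dogs farthest from the median of the markers r was 0.85, and with the slide means removed it was 0.87. In healthy dogs r was 0.42 and rho 0.52 (n = 8, exact permutation p = 0.293 and 0.197). For TRAF1 in AD dogs r was 0.74 and rho 0.77 (adjusted permutation p = 0.0072 and 0.013), but without the 2 farthest dogs r was 0.57 (adjusted permutation p = 0.241). In the 14 AD dogs scanned before the last day it was 0.87 (adjusted permutation p = 0.00324).

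TNFSF13 fell with the erythroid markers in AD dogs, at r = −0.72 and rho = −0.70 (adjusted permutation p = 0.0229 and 0.0402). Without the 2 farthest dogs r was −0.57 (adjusted permutation p = 0.247), and with slide means removed it was −0.74. TNFRSF14 gave r = −0.67 and rho = −0.64 (adjusted permutation p = 0.0336 and 0.0654), and r = −0.62 without the 2 farthest dogs (adjusted permutation p = 0.214). TRAF4 gave r = 0.67 and rho = 0.73 (adjusted permutation p = 0.0472 and 0.0205), but r = 0.64 without the 2 farthest dogs (adjusted permutation p = 0.209) and 0.51 in the 14 AD dogs scanned before the last day (adjusted permutation p = 0.234). TNFRSF4 gave r = 0.57 in all AD dogs, which did not pass (adjusted permutation p = 0.0916), 0.34 without the 2 farthest dogs, 0.37 from the dog channel alone and 0.90 in those 14. Of 108 correlations in each group, 8 passed the adjusted permutation threshold in AD dogs, of which 1 (TNFRSF19 with erythroid markers) still passed without the 2 farthest dogs, and 0 in healthy dogs, where the smallest adjusted exact p was 0.0525. Whether the correlations differ between the groups was not tested, and all points share the arrays and the reference.

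**Figure D4:**
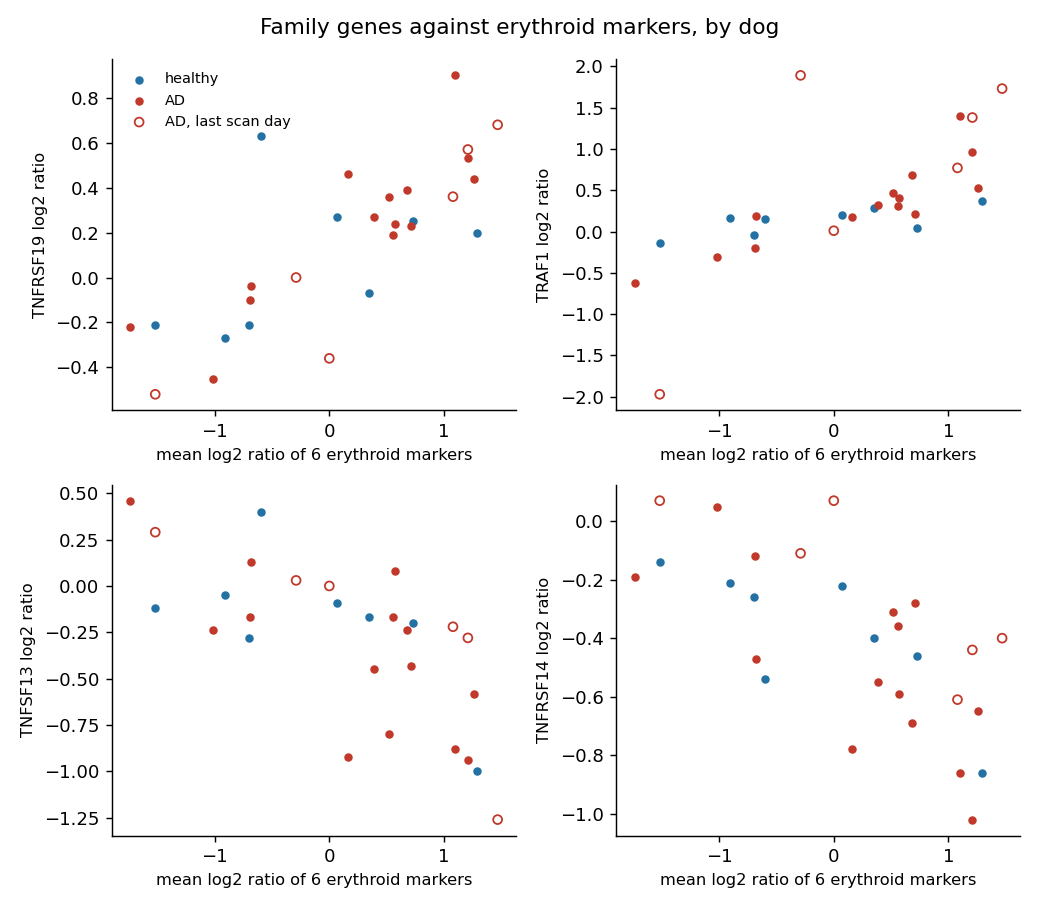
Log2 ratio of TNFRSF19, TRAF1, TNFSF13 and TNFRSF14 (y axes) against the mean log2 ratio of 6 erythroid markers (x axes), 1 point for each dog. Healthy dogs are blue, AD dogs red and AD dogs of the last scan day open circles. TNFRSF19 and TRAF1 rise with the markers (r = 0.87 and 0.74 in AD dogs), and TNFSF13 and TNFRSF14 fall (r = −0.72 and −0.67).

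Of the 5 genes moving with the erythroid markers that had a second probe, this probe passed the same test for TNFSF13 alone. The second TNFSF13 probe, which overlaps the first, had a slope of −0.24 on the erythroid markers (adjusted p = 0.00169 in limma). The second TNFRSF14 probe gave 0.09 where the first gave −0.21, the second TRAF3 probe 0.15 where the first gave −0.21, and the second TRAF2 probe 0.02 where the first gave −0.20. None of these 3 passed in limma, with adjusted p of 0.14, 0.0751 and 0.735. The other TRAF6 probes, as listed by brightness, gave −0.12 and 0.00 where the first gave −0.10. For TNFRSF14, TRAF2 and TRAF3 the sign of the slope therefore depended on the probe.

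With monocyte markers, 2 of 18 genes moved, beside 6.32% of all probes, and both were receptors of TNF itself. TNFRSF1B had a slope of 1.14 (interval 0.65 to 1.63, adjusted p = 0.00884 in limma), and its second probe gave 1.11 (interval 0.63 to 1.59, adjusted p = 0.00877). Across AD dogs r was 0.78 and rho 0.73 (n = 20, adjusted permutation p = 0.00324 and 0.0205), 0.80 with slide means removed and 0.74 without the 2 farthest dogs (adjusted permutation p = 0.054). In healthy dogs r was 0.46 (n = 8, exact permutation p = 0.241). TNFRSF1A had a slope of 0.86 (adjusted p = 0.0344 in limma) and 1.13 from its second probe (adjusted p = 0.0524). Without the last scan day 0 of 18 genes passed on the monocyte markers in limma, beside 0.301% of all probes.

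With neutrophil markers, 3 of 18 genes moved, beside 5.95% of all probes. TNFRSF1A and TNFSF9 were higher where neutrophil markers were higher, with slopes of 0.54 and 0.52 (adjusted p = 0.0213 and 0.0170 in limma), and TRAF3 was lower, with −0.50 (adjusted p = 0.0402). The second TNFRSF1A probe gave 0.69 (adjusted p = 0.0384 in limma) and the second TRAF3 probe −0.02. TNFSF9 gave r = 0.70 in AD dogs (rho 0.64, adjusted permutation p = 0.0229 and 0.0654) and r = 0.71 in healthy dogs (rho 0.62, exact permutation p = 0.0513 and 0.115). When the 2 farthest dogs of a group were left out, r dropped to 0.62 for AD (adjusted permutation p = 0.214) and to 0.33 for healthy dogs.

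With T cell markers, 4 of 18 genes moved, beside 17.3% of all probes. TNFSF8 rose with them (slope 0.61, adjusted p = 0.0171 in limma), as did TRAF3 (0.56, adjusted p = 0.0267), whereas TNFRSF1A (−0.64, adjusted p = 0.00619) and TNFSF9 (−0.50, adjusted p = 0.0282) fell. The second TNFRSF1A probe gave −0.68 (adjusted p = 0.0587 in limma) and the second TRAF3 probe 0.11. By their brightest probes, TNFRSF1A, TNFSF9 and TRAF3 thus had slopes of opposite sign on T cell and on neutrophil markers. These marker means were fitted separately, and how far they ran against each other across dogs was not tested. For TNFSF8 r was 0.55 in AD dogs, where it dropped to 0.29 without the 2 farthest dogs, and 0.77 in healthy dogs (n = 8, exact permutation p = 0.0254, adjusted p = 0.155). No family gene moved with B cell or platelet markers, beside 0.732% and 0.679% of all probes. With slide as a fixed term in place of disease, 8 of 18 genes moved with erythroid markers (beside 34.3% of all probes), 1 with monocyte markers (1.47%) and 0 with neutrophil (0.705%) or T cell markers (1.24%). With the erythroid marker mean as a covariate, 0 of 18 genes differed between AD and healthy dogs at an unadjusted p under 0.05 in limma.

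**Figure D5:**
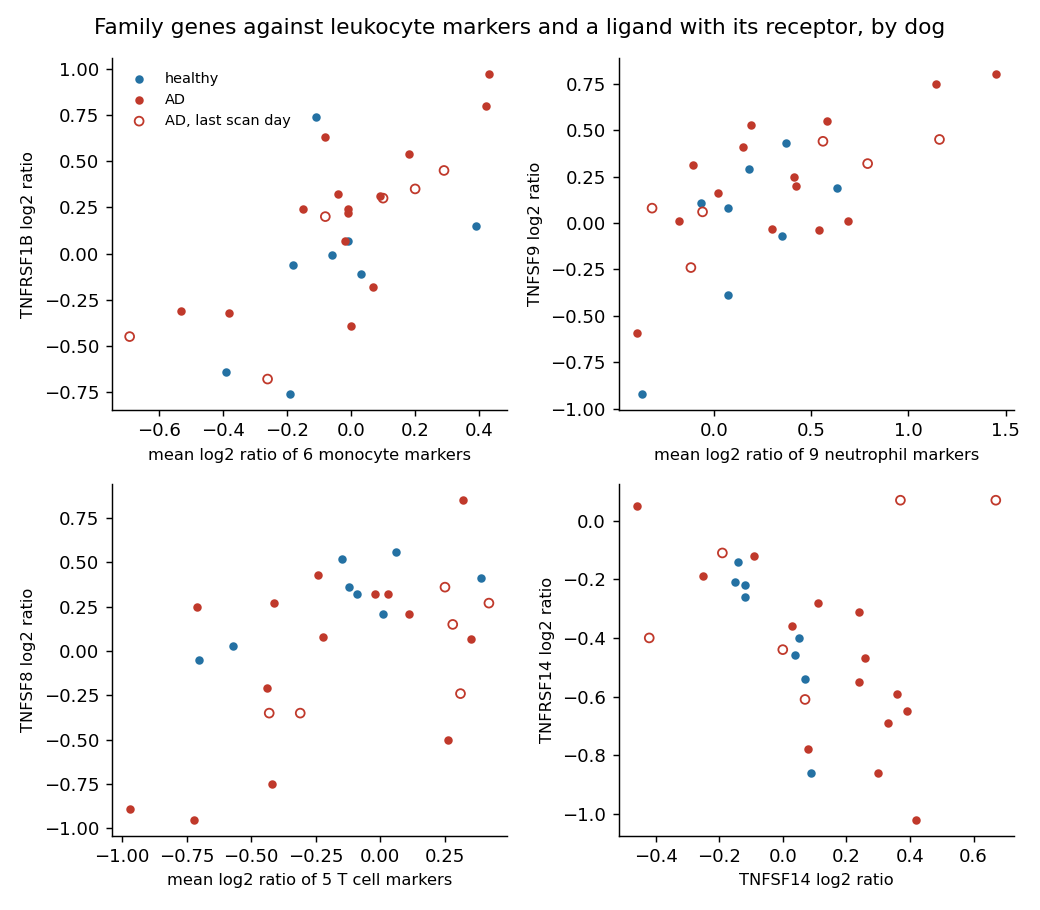
Log2 ratio of TNFRSF1B against 6 monocyte markers, of TNFSF9 against 9 neutrophil markers and of TNFSF8 against 5 T cell markers, and of TNFRSF14 against its ligand TNFSF14, 1 point for each dog on log2 axes. Colors are as for the erythroid markers. TNFRSF1B and TNFSF9 rise with the markers (r = 0.78 and 0.70 in AD dogs), and TNFRSF14 falls as TNFSF14 rises in healthy dogs (r = −0.88).

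Among the 24 genes, 2 ligand and receptor pairs were examined in which both genes passed the signal filter. TNFSF14 and its receptor TNFRSF14 ran opposite to each other in healthy dogs, at r = −0.88 and rho = −0.95 (n = 8, exact permutation p = 0.000372 and 0.00114, adjusted over 4 correlations 0.00149 and 0.00456). Healthy 1 had the highest ligand (0.09) with the lowest receptor (−0.86), and healthy 2 had −0.14 for both, the highest receptor value. Without the 2 dogs farthest from the median of the ligand r was −0.95. From the dog channel alone, without the reference, r was −0.26 (n = 8, exact permutation p = 0.525), so the call was lost without the reference. In 20 AD dogs r was −0.32 and rho −0.33 (permutation p = 0.176 and 0.155), against −0.81 in the 14 dogs scanned before the last day. AD 17 and AD 18, both of the last day, had high values of both genes. With the erythroid markers, TNFSF14 gave r = 0.73 and TNFRSF14 r = −0.77 in healthy dogs (n = 8, adjusted permutation p = 0.178 and 0.135). In all AD dogs these were 0.23 and −0.67, and 0.81 and −0.71 in the 14 scanned before the last day. The part of the erythroid markers in the correlation of the pair was not tested, and only the brightest TNFRSF14 probe was used. TNFSF9 and its receptor TNFRSF9 gave r = 0.16 in AD dogs (permutation p = 0.477) and −0.46 in healthy dogs (n = 8, exact permutation p = 0.246).

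Family genes that carry other names were counted beside the members. Of 15 such genes 14 were on the array and 13 passed the filter, among them TNF, LTA, LTB, CD40LG, FAS, CD40, CD27 and LTBR, and 0 of 13 reached an unadjusted p under 0.05 in limma. TNF itself had a log2 fold change of 0.22 (interval −0.20 to 0.64). FASLG was below the signal filter and was detected on 6 AD arrays and 4 healthy arrays. Of 28 genes that act downstream in the pathway 23 were on the array and tested, and 1 reached an unadjusted p under 0.05. This was NFKBIA, the inhibitor that NF-κB induces to limit itself, with a log2 fold change of 0.32 (interval 0.05 to 0.59, p = 0.0229 and adjusted p = 0.657 in limma). In the reference channel, which held the same RNA on every array, NFKBIA was 0.26 higher on AD arrays on the log2 scale (adjusted p = 0.0026 in limma). TRADD, CASP8, BIRC2, IKBKB and CHUK did not reach an unadjusted p under 0.05 in limma, and neither did NFKB1, RELA or TNFAIP3. TNFSF13B, TNFRSF13B and TNFRSF13C, the BAFF system of B cells, and TNFRSF17 had no probe under these names in the files used here.

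Differences between slides of AD dogs, tested with limma's moderated F test over 6 slides, reached an adjusted p of 0.085 in 0 of 18 family genes, beside 5.28% of all probes. The lowest was TNFRSF4 at an adjusted p of 0.112. In the reference channel, where the RNA was the same on every array, 7 of 18 family genes differed between AD and healthy arrays at an adjusted p of 0.085 in limma, beside 39.1% of all probes. TNFRSF21 was 0.70 higher on AD arrays in this channel on the log2 scale, and TNFRSF4 fell by 0.66 and TNFRSF19 fell by 0.43 there. TRAF3, TRAF7 and TRAF2 were 0.27, 0.20 and 0.19 higher, and TRAF6 fell by 0.13. These differences exceed the log2 fold changes of the ratios for TNFRSF21, TNFRSF4, TNFRSF19, TRAF2, TRAF3, TRAF6 and TRAF7.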

How the data were processed

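Each of 28 two-color arrays measured blood RNA of 1 dog, 20 with AD and 8 healthy. Per the labels the authors extracted signals with Agilent Feature Extraction 10.7.3.1, whereas the file headers name 10.10.1.1. The deposited processed signals are intensities on a linear scale after background subtraction and Lowess dye normalization by the authors. The deposited log10 ratio in the table of processed values matched the ratio of processed signals to within 0.001 in 94.2% of values and was used as an alternative. Outlier marks and detection marks (well above background) came from the deposited files.

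Control spots were left out, spots of 1 probe averaged and spots marked as outliers set to missing. The log2 ratio of dog to reference was centered on the array median over 30202 probes. These probes were detected on at least 1 array and had a median intensity above 100 in at least 1 of 4 group and channel medians. Groups were compared in limma 3.58.1 (lmFit, eBayes, Benjamini-Hochberg) under R 4.3.3, and matplotlib 3.10.9 drew figures. The scripts were tested on simulated data.

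Genes given in full were those with an unadjusted p under 0.05, of which there were 0, the 3 brightest per role, and TNFRSF1A, TNFRSF1B, TNFSF10 and TNFSF13. The gene name rule used no measured value, but the family, the gene lists and the tests were chosen with earlier results of these data known, and the marker comparisons after seeing the data. For the marker comparisons an adjusted p of 0.05 was the threshold. Correlations used 100000 permutations in AD dogs and 40320 in healthy dogs, all that exist. Alternatives varied the filter, outlier marks, background correction, centering, use of the reference, source of values, slide, scan day, dog number, weights, variance model, probe choice and arrays included. Each dog was measured on 1 array. A gene that met the name rule is not reported here, and family genes that the array names only by accession were not analysed here.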

Additional observations from a re-analysis of the deposited data

How the results depend on the processing

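Under 25 alternatives, the number of family genes past the adjusted p of 0.085 was 0 each time, and the smallest adjusted p of a family gene under any of them was 0.137 (TRAF3, array weights). At an unadjusted p under 0.05 the number of family genes in limma was 1 with centering over all probes (6.84% of all probes), 3 with the dog channel alone (19.5%) and 4 with array weights (18.9%), and 0 to 1 with each slide left out in turn. Over all probes the dog channel alone gave 5879 such calls and array weights 5701, against 1847 in the reported analysis, and they gave 1251 and 849 calls at the adjusted threshold against 0. The median log2 fold change of the family ranged from −0.02 to 0.08. What 20 AD dogs and 8 healthy dogs could show is given by the confidence intervals, and the part of low signal in their width was not tested.

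The estimates lie near 0, and several changed sign, none past the threshold in either setting. Normexp and loess gave TNFRSF14 0.00, TNFRSF21 0.01 and TNFRSF4 0.00, and centering over all probes gave TRAF6 −0.01 and TRAF7 −0.01. The dog channel alone gave TNFRSF19 −0.30, TNFRSF21 0.71, TNFSF10 −0.11, TNFSF14 −0.07, TRAF2 0.07, TRAF3 0.02 and TRAF6 −0.15. Array weights gave TNFRSF4 0.15, TNFRSF9 0.00, TNFSF10 −0.05 and TRAF6 −0.02. The mean of all probes gave TRAF6 0.00, the arrays without the last scan day TNFRSF4 0.16, and the erythroid covariate, chosen after seeing the data, TNFRSF14 0.06 and TNFRSF21 0.09. With each slide left out in turn the estimate of the genes that changed sign ranged for TNFRSF14 from −0.07 to 0.01, for TNFRSF1A from −0.01 to 0.16, for TNFRSF21 from −0.26 to 0.24, for TNFRSF19 from −0.07 to 0.32, for TRAF2 from −0.22 to 0.01, for TRAF7 from −0.01 to 0.05, for TNFRSF4 from −0.25 to 0.09, for TNFSF10 from −0.05 to 0.13, for TNFSF13 from −0.31 to 0.03, for TRAF6 from −0.01 to 0.04 and for TNFRSF9 from −0.17 to 0.07. TNFRSF1B, TNFSF8, TNFSF9, TRAF1 and TRAF4 kept their sign under all 25 alternatives, but normexp and loess took them to 0.13, −0.18, 0.20, 0.01 and 0.04, from 0.24, −0.33, 0.26, 0.29 and 0.18. TNFSF9 was lowest with slide 3 left out, at 0.12.

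Dog numbers, which both groups share, paired nothing in the labels. Of 8 pairs with the same number 4 had deviations that correlated above 0.1, in a range of −0.359 to 0.425, and 0 of 8 healthy dogs correlated best with their own number. With the dog number as a replicate block, 2 of 18 family genes had an unadjusted p under 0.05, beside 17.1% of all probes, and 0 passed the adjusted threshold in limma, with TNFRSF4 at 0.21 and TNFRSF9 at 0.00 on the log2 scale.

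For the marker comparisons, with alternatives chosen after seeing the data, the number of family genes that moved with T cell markers was 4, and it was 0 with slide as a fixed term (1.24% of all probes), 7 without the last scan day (23.7%) and 1 in AD dogs alone (11.0%), against 17.3% as reported. For neutrophil markers the count of 3 (5.95%) was 0 with slide as a fixed term (0.705%), 1 with the dog channel alone (0.573%), 2 without the last scan day (5.05%) and 0 in AD dogs alone (1.29%). For monocyte markers the count of 2 (6.32%) was 1 with slide as a fixed term (1.47%), 0 without the last scan day (0.301%) and 0 in AD dogs alone (0.0729%). For erythroid markers the count of 11 (40.2%) was 8 to 11 (33.8% to 45.7%). The opposite course of TNFSF14 and TNFRSF14 in healthy dogs was −0.26 with the dog channel alone. The causes were not tested.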
